A study of Mus musculus with 4 samples.

Results

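The hnRNP F/H family was followed in mouse splenic follicular B (FOB) cells with and without Hnrnpf. Its members were taken by gene symbol, not by any measured value, though the family was chosen with earlier results of these data known. They are the 5 genes Hnrnpf, Hnrnph1, Hnrnph2, Hnrnph3 and Grsf1 among the 55401 genes of the deposited count table. All 5 passed the filter on low counts, which left 14123 genes for testing. Poly(A) RNA was sequenced from 2 WT and 2 Hnrnpf bKO libraries of FOB cells sorted as B220+ CD93- CD23high CD21low. The labels describe C57BL/6 mice of 7 weeks, and the methods give a wider range of ages and both sexes. By those methods both genotypes carried loxP sites on both Hnrnpf alleles (Hnrnpf fl/fl). The bKO mice alone also carried 1 Cre allele, which acts in B-lineage cells. Loss of Hnrnpf and the presence of this allele therefore cannot be told apart in these libraries. Nothing in the sources used here says whether each library came from a single mouse or from pooled cells, so p-values measure the spread between these libraries, which may be technical.

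hnRNP F, H1, H2 and H3 are RNA-binding proteins that hold quasi-RNA recognition motifs and bind runs of G in pre-mRNA. Depending on where such G-tracts lie, they favour or hinder the use of an exon, and they also act in 3′ end processing. Grsf1 is the most distant member, and its protein is known mainly from mitochondrial RNA granules, where mitochondrial transcripts are processed. hnRNP F and H1 bind similar sequences and are often studied as a pair with overlapping roles.

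Coordinates and transcripts are those of GENCODE M21 on GRCm38, whose gene positions and exonic sizes equal the deposited ones for all 5 genes. Hnrnpf (chr6:117900324-117925622, plus strand) has its whole coding sequence of 1245 bases in the last exon of its main transcript. That exon covers 62.8% of the exonic bases of the gene, and the conditional allele removes the exon the study numbers as exon 4. Hnrnph2 (chrX:134601179-134607060, plus strand) also has an undivided coding sequence, of 1347 bases. Hnrnph1 (chr11:50376990-50386528, plus strand) spreads a coding sequence of the same 1347 bases over 12 exons. Hnrnph3 (chr10:63014664-63024217, minus strand) has 1038 coding bases and Grsf1 (chr5:88659448-88676171, minus strand) has 1437, each in 9 exons. Hnrnph1 and Hnrnph2 had the closest coding sequences, with 85.9% identical aligned bases. Hnrnpf shared 77.1% with Hnrnph1, 74.3% with Hnrnph2, 67.2% with Hnrnph3 and 60.8% with Grsf1.

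Hnrnph1 and Hnrnph3, the 2 members that rose in Hnrnpf bKO cells and the 2 with rows in the deposited splicing table, share an annotated alternative exon. It was chosen with those results known, and whether it takes part in them was not tested. Both copies are 139 bases long, which is not a multiple of 3, and lie inside the coding sequence. Exon 6 of Hnrnph1 (chr11:50381459-50381597, plus strand) is skipped in transcript Hnrnph1-215. Exon 3 of Hnrnph3 (chr10:63018760-63018898, minus strand) is skipped in 2 annotated transcripts, 1 of which is annotated as a target of nonsense-mediated decay. The reference sequences run 5′ to 3′ on the sense strand, and capitals mark G-tracts, here runs of GGG or longer.
Hnrnph1 exon 6: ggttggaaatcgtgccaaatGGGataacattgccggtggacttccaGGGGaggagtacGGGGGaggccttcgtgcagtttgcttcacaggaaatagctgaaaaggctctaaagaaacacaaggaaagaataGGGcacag
Hnrnph3 exon 3: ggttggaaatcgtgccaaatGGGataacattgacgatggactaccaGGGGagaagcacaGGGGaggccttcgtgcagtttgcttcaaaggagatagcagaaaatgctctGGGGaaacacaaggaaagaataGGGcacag
The exons were identical at 126 of 139 bases (90.6%), against 70.2% over the aligned coding sequences of the genes. Hnrnph1 exon 6 held 4 G-tracts and Hnrnph3 exon 3 held 5. Of the 969 annotated internal exons of 139 bases in protein-coding transcripts, 74 (7.64%) held at least 4 on the sense strand, and the median was 1. The threshold of 4 was taken from this pair, and its copies share most of their sequence, so the share is a description and not a test. A G-tract in these letters is a description of the sequence and not a measured binding site.

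Hnrnpf, the targeted gene, was measured at 5780 and 6634 counts in WT against 1167 and 1194 counts in bKO. On the length-scaled level (FPKM, the fragment count scaled to the exonic size in kilobases and to the library total) this was 115.95 and 115.14 in WT and 24.40 and 21.68 in bKO. Both bKO libraries lay far below both WT libraries, as their labels require. The mean level fell from 116 ± 0.573 to 23.0 ± 1.92 FPKM (SD, n = 2). The log2 fold change was -2.32 ± 0.06 (SE), or 0.201 times WT with a 95% confidence interval of 0.183 to 0.220 (edgeR quasi-likelihood test, adjusted p = 1.05e-10). No other gene of the 3970 that averaged at least 1000 counts fell as far. The bKO libraries differed from each other by 12.5%, against a counting error of 4.12%, while the WT libraries differed by 0.699% against 1.80%. The remaining counts were not split by exon: transcripts of an undeleted allele, in FOB cells or in other cells of the sort, and transcripts that keep the exons outside the deleted part, which hold 37.2% of the exonic bases if the deleted part is the last exon, cannot be told apart. In bulk RNA, fewer cells with a transcript and less transcript per cell cannot be told apart either.

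**Figure D1:**
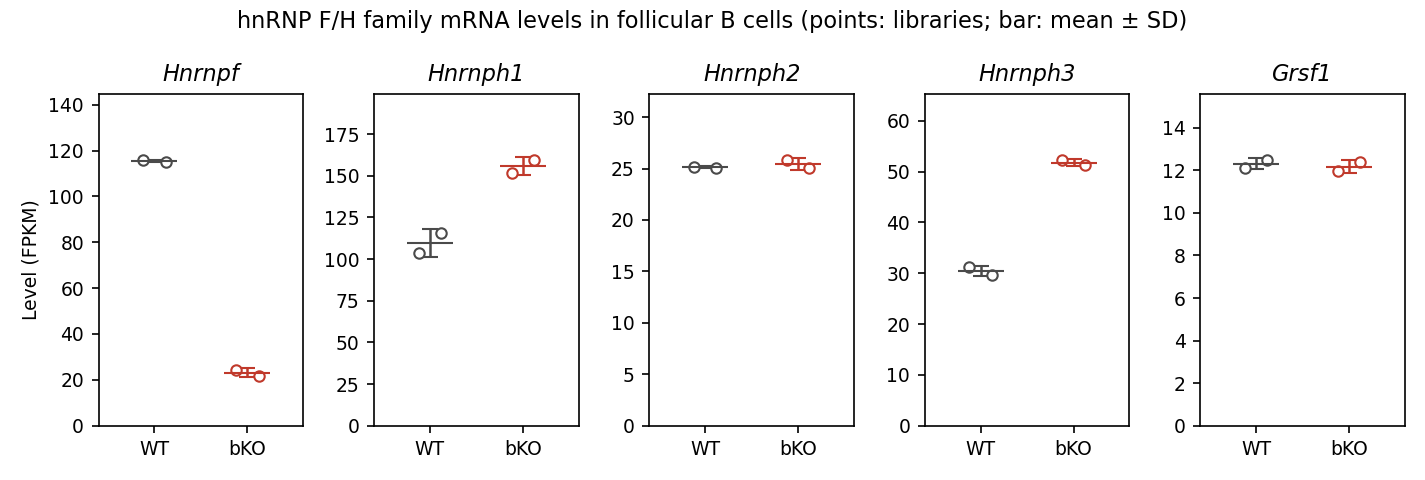
Level in FPKM (vertical axes, each starting at 0) of the 5 family members in the 2 WT and 2 Hnrnpf bKO libraries; circles are libraries, and bars are the mean ± SD of 2 libraries. Hnrnpf drops from about 115 to below 25 FPKM, Hnrnph1 and Hnrnph3 are higher in both bKO libraries than in either WT library, and the circles of Hnrnph2 and Grsf1 overlap between genotypes.

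Hnrnph1, the closest paralogue of Hnrnpf by coding sequence and the member most often grouped with it, had 9916 and 12791 counts in WT against 13922 and 16845 in bKO. These counts correspond to 103.75 and 115.79 FPKM in WT and 151.80 and 159.53 FPKM in bKO. The lower bKO library stood above the higher WT library. The mean rose from 110 ± 8.51 to 156 ± 5.47 FPKM (SD, n = 2), a log2 fold change of 0.52 ± 0.06 (SE) and a fold of 1.43 with a 95% confidence interval of 1.31 to 1.56 (edgeR, adjusted p = 1.62e-04). The WT libraries differed by 11.6%, against a counting error of 1.34%. With limma on log2 FPKM the change was of similar size but missed the threshold (log2 difference 0.51, adjusted p = 0.0697 with 0.1 FPKM added, and 0.50, adjusted p = 0.0702 with 1 FPKM added).

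Hnrnph3, the shortest member by coding sequence, also rose. It had 1607 and 1767 counts in WT against 2586 and 2920 in bKO, or 31.17 and 29.66 FPKM against 52.28 and 51.27 FPKM. Replicates lay close together and the genotypes did not overlap. Its mean rose from 30.4 ± 1.07 to 51.8 ± 0.714 FPKM (SD, n = 2), a log2 fold change of 0.78 ± 0.06 (SE) and a fold of 1.72 with a 95% confidence interval of 1.58 to 1.87 (edgeR, adjusted p = 5.72e-06). Whether Hnrnph3 rose more than Hnrnph1 was not tested across genes. Within a library, the ratio of Hnrnph3 to Hnrnph1 in FPKM was 0.300 and 0.256 in WT and 0.344 and 0.321 in bKO.

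Hnrnph2, an X-linked gene whose coding sequence is the closest to that of Hnrnph1, did not pass the test. Its counts were 1801 and 2072 in WT and 1772 and 1975 in bKO, and its levels were 25.20, 25.08, 25.84 and 25.01 FPKM in the same order. The bKO libraries lay on either side of both WT libraries. The log2 fold change was 0.03 ± 0.06 (SE, edgeR adjusted p = 0.839). The 95% confidence interval ran from 0.937 to 1.11 times WT, and its upper end lay below the lower ends for Hnrnph1 (1.31) and Hnrnph3 (1.58). A difference between the responses of these genes was not itself tested.

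Grsf1, the member with a mitochondrial role, was the least abundant and did not pass the test. It had 602 and 717 counts in WT against 570 and 680 in bKO, corresponding to 12.12, 12.49, 11.96 and 12.39 FPKM. The values of both genotypes interleaved. Its mean was 12.3 ± 0.262 FPKM in WT and 12.2 ± 0.304 in bKO (SD, n = 2), with a fold of 0.998, a 95% confidence interval of 0.882 to 1.13 and an adjusted p of 0.988 (edgeR). Its direction turned when WT replicate 2 or Hnrnpf bKO replicate 1 was left out, with log2 fold changes of 0.018 and 0.028.

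Of the 5 members, 3 passed the threshold of 0.05 on the adjusted p, against 6.97% of all tested genes. The call of Hnrnpf is the check of the genotype. Of the other 4 members, 2 were called as higher, against 4.15% of tested genes called as higher and 2.83% called as lower. With a fold of at least 2 required as well, Hnrnpf was the single member called, against 0.899% of tested genes. Among the 3970 genes that averaged at least 1000 counts, Hnrnph3 had rank 9 and Hnrnph1 rank 34 by log2 fold change, so that 0.227% and 0.856% of these genes rose as much or more. Hnrnph1, Hnrnph3 and Hnrnpf were apart between WT and bKO in every library on CPM, counts scaled to the library total alone, and so were 50.4% of tested genes. For a single gene, an exact permutation test of 2 against 2 libraries cannot give a two-sided p below 0.333.

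**Figure D2:**
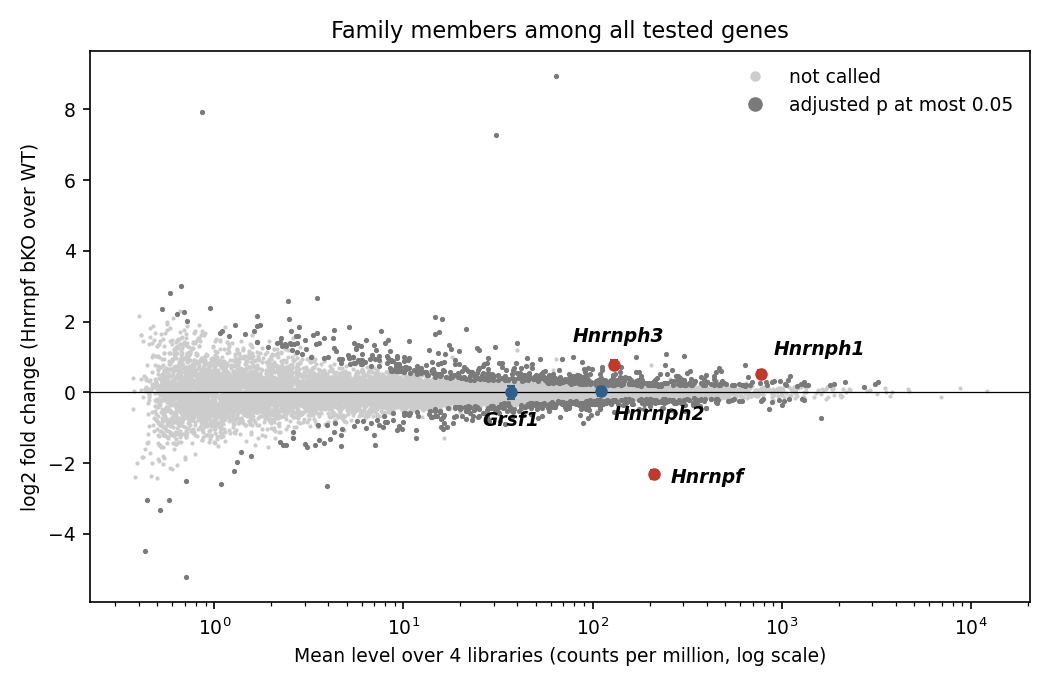
Log2 fold change of Hnrnpf bKO over WT (vertical axis) against mean CPM over 4 libraries (horizontal log axis) for the 14123 tested genes. Labelled points are family members with their 95% confidence interval, in red where the adjusted p was at most 0.05 and in blue otherwise, and dark grey dots are the other called genes. Hnrnpf lies apart at -2.32, Hnrnph3 and Hnrnph1 lie on the upper edge of genes of similar abundance, and Hnrnph2 and Grsf1 lie near 0.

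In WT FOB cells the order of the levels in FPKM was Hnrnpf, Hnrnph1, Hnrnph3, Hnrnph2 and Grsf1. Hnrnpf and Hnrnph1 overlapped between libraries (115.14 FPKM for the lower Hnrnpf library and 115.79 for the higher Hnrnph1 library) and could not be ordered. The other neighbours did not overlap within WT, and Hnrnph3 exceeded Hnrnph2 by 1.21 times. In Hnrnpf bKO cells the order was Hnrnph1, Hnrnph3, Hnrnph2, Hnrnpf and Grsf1, again without overlap between neighbours. In FPKM Hnrnpf thus moved from a place shared with Hnrnph1 at the top of the family to the place above Grsf1. Hnrnph1 was measured at 0.895 and 1.01 times the FPKM of Hnrnpf in WT, against 6.22 and 7.36 times in bKO.

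The order of neighbours depended on the length behind the level. The deposited exonic size counts every annotated exon, 5842 bases for Hnrnph1 and 3047 for Hnrnpf, whereas their main transcripts measure 2427 and 2401 bases. In CPM per kilobase of the main transcript, Hnrnph1 stood above Hnrnpf in WT, at 250 and 279 against 147 and 146, and Hnrnph2 stood just above Hnrnph3. Per kilobase of coding sequence Hnrnph1 was also above Hnrnpf in WT, at 450 and 502 against 284 and 282. The place of Hnrnpf in bKO cells, below Hnrnph2 and above Grsf1, was shared by the 3 length scales.

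Hnrnpf made up 40.2% and 38.6% of the summed FPKM of the family in WT, against 9.16% and 8.03% in bKO. Hnrnph1 went from 36.0% and 38.8% to 57.0% and 59.1%, and Hnrnph3 from 10.8% and 9.95% to 19.6% and 19.0%. Hnrnph2 took between 8.41% and 9.70% and Grsf1 between 4.19% and 4.59% in any library. The summed level was 288 and 298 FPKM in WT and 266 and 270 FPKM in bKO. The bKO mean was 8.56% below the WT mean, and the totals did not overlap between genotypes. On this scale Hnrnpf was lower by 92.5 FPKM in bKO, and Hnrnph1 and Hnrnph3 together were higher by 67.3 FPKM. Counts were per gene and not split by transcript, so the part of coding transcripts in that rise was not tested. The sign of the difference in the total turned with the length: per kilobase of coding sequence the bKO mean was 3.98% above WT, and per kilobase of the main transcript it was 4.64% above. The transcript-length totals were 501 and 527 in WT and 532 and 544 in bKO, so the direction of the family total was not settled by these counts. Without Hnrnpf, the summed FPKM of the other 4 members was 172 and 183 in WT and 242 and 248 in bKO, 37.9% higher in the mean.

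**Figure D3:**
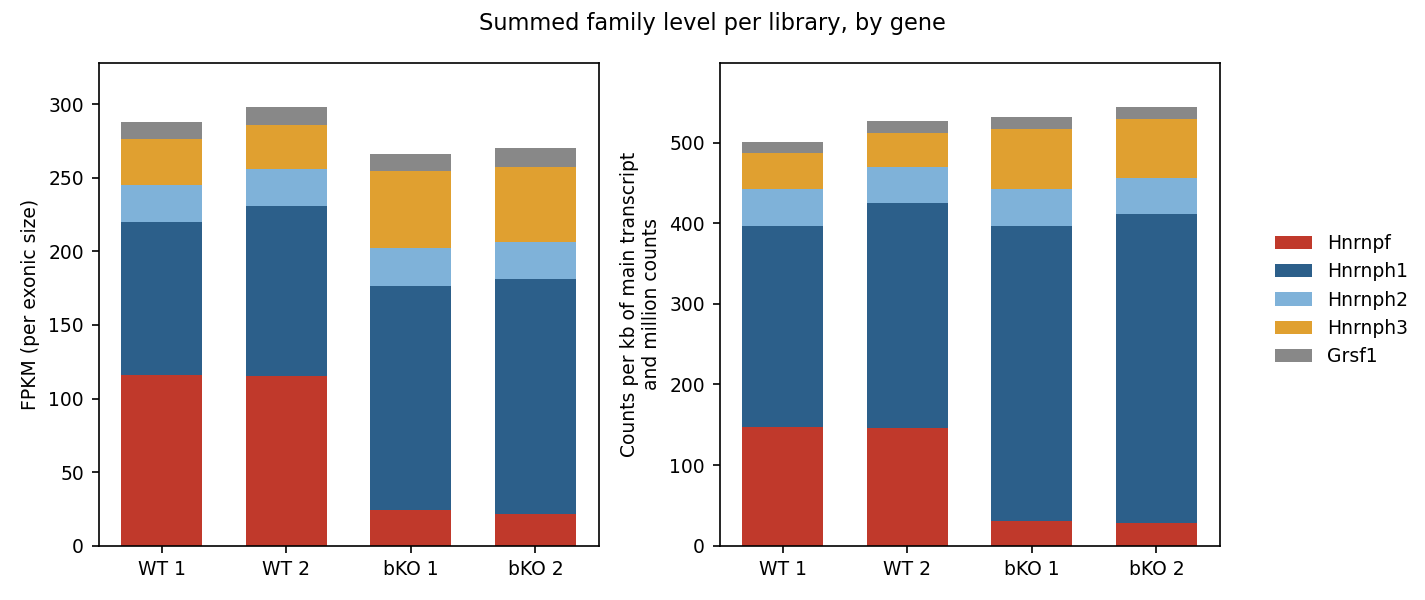
Stacked levels of the 5 family members in each library, in FPKM per deposited exonic size (left axis panel) and in CPM per kilobase of main transcript (right panel). The share of Hnrnpf shrinks and those of Hnrnph1 and Hnrnph3 grow in both bKO libraries, while the height of the whole bar is lower in bKO on the left (266 and 270 against 288 and 298) and higher on the right (532 and 544 against 501 and 527).

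Several annotated genes share sequence with a member, and their counts bear on what a read count of the member means. A search for stretches of at least 150 bases with at least 90% identity found 9 processed pseudogenes or long noncoding RNAs that resemble Hnrnpf. Together they held 149 and 183 counts in WT against 32 and 45 in bKO, between 2.58% and 3.77% of the Hnrnpf count of the same library. Gm47882, which is 99.4% identical over 940 aligned bases, held more of them than any other copy in every library. It had 111 and 129 counts in WT against 15 and 21 in bKO, a log2 fold change of -2.66 ± 0.28 (SE, edgeR adjusted p = 1.21e-04, and 0.0684 and 0.0637 with limma). Reads of Hnrnpf placed on such a copy and reads of the copy itself cannot be told apart here.

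On the strand opposite to Hnrnpf, 2 annotated genes overlap it, and the strand setting of the counting is not given in the sources used here. 4933440N22Rik had 111 and 114 counts in WT against 63 and 40 in bKO, with a log2 fold change of -1.04 ± 0.27 (SE, edgeR adjusted p = 0.0371). That call was lost without WT replicate 1 (adjusted p = 0.0837), without Hnrnpf bKO replicate 2 (adjusted p = 0.196), with DESeq2 and with limma. Gm43863 had 96 and 110 counts in WT against 36 and 43 in bKO (log2 fold change -1.31 ± 0.24 SE, edgeR adjusted p = 0.00621). Without strand, their reads and those of Hnrnpf cannot be told apart, and 4933440N22Rik also shares 366 aligned bases with it.

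The pseudogene that resembles Hnrnph1, Gm49168, had 0 counts in every library. An annotated transcript of Setd1b shares 171 aligned bases with Hnrnph1, and Setd1b itself, a histone methyltransferase gene, did not pass the test (log2 fold change -0.10 ± 0.06 SE, edgeR adjusted p = 0.403). Rufy2, which overlaps Hnrnph3 on the opposite strand, had 700 and 817 counts in WT against 679 and 855 in bKO (log2 fold change 0.09 ± 0.08 SE, edgeR adjusted p = 0.608), and without strand its reads and those of Hnrnph3 cannot be told apart where the genes overlap. The processed pseudogene Gm8775 had between 14 and 30 counts per library, at most 1.52% of the count of Hnrnph2, which it resembles.

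The splicing table lists events that the authors called between the genotypes with rMATS. It names an event's gene and type but no coordinates, and the authors' own statistics on each event were not used. The 1556 events fall in 1173 genes. Hnrnph1 has 2 of them, an exon skipping event and a retained intron, and Hnrnph3 has an exon skipping event, while Hnrnpf, Hnrnph2 and Grsf1 have none. Thus 2 of the 5 members were listed, against 8.22% of all tested genes and 12.9% of the genes that averaged at least 1000 counts, 4 of the members being that abundant. Hnrnph1 is among 42 genes listed with both an exon skipping event and a retained intron. In their main transcripts Hnrnpf and Hnrnph2 have no coding exon that could be skipped without losing the whole reading frame. Both also have annotated noncoding exons that another transcript skips, of 60, 61 and 75 bases in Hnrnpf and 71 and 45 bases in Hnrnph2. Why neither gene has a listed event was not tested.

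Which exon or intron is meant cannot be told from the table. In the annotation, the exon 3 printed above is the only internal exon of Hnrnph3 that another transcript skips whole. Hnrnph1 has 3 such exons, namely exon 6 printed above, exon 11 of 60 bases (chr11:50383680-50383739) and exon 14 of 50 bases (chr11:50385141-50385190). Introns of its main transcript that other Hnrnph1 transcripts retain include 1 of 197 bases (chr11:50379624-50379820) and 1 of 91 bases (chr11:50383740-50383830), each with a single G-tract on the sense strand. The shorter one follows exon 11 directly. Also retained in other Hnrnph1 transcripts are the introns on either side of exon 6. These are 1494 bases with 8 G-tracts (chr11:50379965-50381458) and 939 bases with 6 (chr11:50381598-50382536).

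The 25 other hnRNP genes on the list, among them the hnRNP A/B, PTBP, PCBP and CELF genes, gave no call. All 25 were tested with edgeR, 2 had an unadjusted p under 0.05, and DESeq2 and limma also called 0. Their log2 fold changes ran from -0.13 to 0.16 with a median of 0.02, beside a median of -0.002 over all tested genes. Their summed level was 7805 and 7810 CPM in WT and 7742 and 7712 in bKO. Hnrnpa2b1, the most abundant of them and a partner in many splicing complexes, had 15218 and 18011 counts in WT against 14907 and 17056 in bKO (log2 fold change 0.02 ± 0.05 SE). Hnrnpu, which binds chromatin-associated RNA, had a log2 fold change of 0.03 ± 0.05 (SE). Among the 25, 5 were listed with a splicing event, against 8.22% of all tested genes and 12.9% of those averaging at least 1000 counts. They were Hnrnpa2b1 with 2 events, and Hnrnpab, Hnrnpr, Raly and Celf1 with 1 each, names taken after their rows were seen. The log2 fold changes of Hnrnph1 and Hnrnph3, 0.52 and 0.78, lay outside the range of this list.

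Genes that encode other proteins with related RNA recognition motifs were measured at low levels. Of 5 such genes, 3 could be tested and none was called by edgeR, where 0 had an unadjusted p under 0.05, or by DESeq2 or limma. Rbm12 had a log2 fold change of -0.12 ± 0.10 (SE) and Rbm12b2 one of 0.21 ± 0.10 (SE). The epithelial splicing regulators Esrp1 and Esrp2 had at most 9 counts in any library and were not tested.

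Of 12 genes for helicases and other proteins that act on G-rich RNA, edgeR called 2, 1 higher and 1 lower. The lower one, Taf15, an RNA-binding protein, had 3163 and 3538 counts in WT against 2536 and 2965 in bKO, with a log2 fold change of -0.21 ± 0.05 (SE, adjusted p = 0.0282). Its call was lost without WT replicate 1 (adjusted p = 0.158), without Hnrnpf bKO replicate 1 (adjusted p = 0.139), with DESeq2 (adjusted p = 0.0555) and with limma. The list's median was 0.02. With no filter on low counts, Ddx5 and Ddx17 were called as well.

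Genes whose transcripts have been described elsewhere as processed by hnRNP F or H were not called at the level of abundance. Of 12, 9 were tested, 0 passed by edgeR, DESeq2 or limma, and 2 had an unadjusted p under 0.05 by edgeR. Ighm, the IgM heavy chain, had a log2 fold change of 0.03 ± 0.05 (SE), and Mcl1, a survival factor of the BCL2 family, one of -0.07 ± 0.05 (SE). The list's median was -0.01. The splicing table lists events for 3 of the 12, against 8.22% of all tested genes and 12.9% of those averaging at least 1000 counts. They are Cd40 with 5, Terf2 with 2 and Araf with 1, named after their rows were seen. Cd40 came onto the list through work on these samples, so its rows are not independent evidence.

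The neighbourhood of Grsf1 in mitochondria gave no call. The 17 genes for partners in mitochondrial RNA processing had a median log2 fold change of -0.04, with 0 called by edgeR, DESeq2 or limma and 2 at an unadjusted p under 0.05 by edgeR. Dhx30, an RNA helicase of the granules, had a log2 fold change of -0.02 ± 0.05 (SE) and Fastk one of -0.17 ± 0.07 (SE). The 13 mitochondrial mRNAs summed to between 14751 and 16151 CPM in any library. Among them mt-Atp8, mt-Nd3 and mt-Nd4l had at most 25 counts in any library, so the lack of a call says little for them. Of the 13, 0 were called by the same tools and 1 had an unadjusted p under 0.05 by edgeR. The gene with that p, mt-Co1, the most abundant of them, had 114878 and 142938 counts in WT against 103857 and 120330 in bKO (log2 fold change -0.12 ± 0.05 SE, adjusted p = 0.141). It was called with no filter on low counts, and mt-Cytb had a log2 fold change of 0.05 ± 0.05 (SE).

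**Figure D4:**
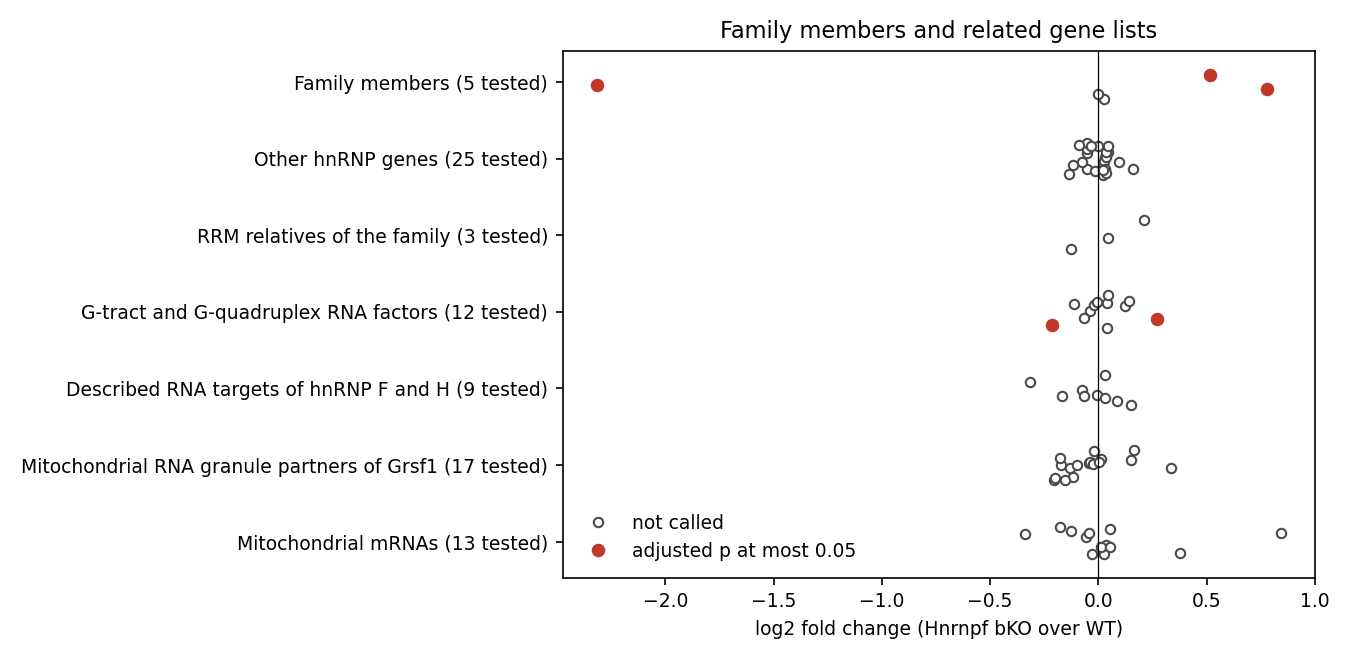
Log2 fold change of Hnrnpf bKO over WT (horizontal axis) for every tested gene of the family and of 6 related lists (rows), filled red where the edgeR adjusted p was at most 0.05 and open otherwise; vertical scatter within a row carries no value. The 3 called members stand outside the range of -0.13 to 0.16 of the 25 other hnRNP genes, and the other lists hold 2 called points, both among the G-tract and G-quadruplex RNA factors.

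The genes whose pattern over the 4 libraries was most like that of each called member were sought among 9875 genes that averaged at least 100 counts, by the distance of log2 CPM centred on the gene's mean. For Hnrnpf no gene was close, the nearest being Snx21 at a distance of 1.097, followed by Prr7 at 1.29. For Hnrnph1 the nearest were Pex6 at 0.02, Got1 at 0.03 and Ube2l6 at 0.04. Pex6, a peroxisome biogenesis factor, had 1677 and 2159 counts in WT against 2387 and 2838 in bKO. For Hnrnph3 the nearest were Il18bp at 0.07, Trip6 at 0.07 and Pde2a at 0.07. With 4 libraries such likeness is a description of these samples.

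The libraries held 15698567 to 18908963 counts, and the counts of replicates differed beyond sampling noise in both genotypes (chi-square per degree of freedom 4.30 in WT and 3.86 in bKO). Of 10 FOB cell markers all were detected, at summed levels of 19002 and 19069 CPM in WT and 18495 and 18867 in bKO. Of these 10, 2 were called higher and 3 lower, against 4.15% and 2.83% of all tested genes. Cr2, the complement receptor CD21 used in the sort, had a log2 fold change of -0.47 ± 0.07 (SE), Ms4a1 one of -0.29 ± 0.05 and Ighd one of 0.28 ± 0.05. Fcer2a, the gene of CD23 and also used in the sort, was called higher, at 0.22 ± 0.05 (SE, edgeR adjusted p = 0.0180). Of 6 myeloid markers, 2 were called higher, against 4.15% of all tested genes. These were S100a8 with 30 and 48 counts against 81 and 134 and S100a9 with 52 and 90 against 119 and 223. The other 4 did not pass: Cd68 had 168 and 155 counts against 94 and 117 (log2 fold change -0.55 ± 0.19 SE, edgeR adjusted p = 0.101) and Csf1r a log2 fold change of -0.21 ± 0.36 (SE), while Lyz2 had one of 0.56 ± 0.29 and Itgam one of 0.71 ± 0.42. The 6 together summed to 21.5 and 25.8 CPM in WT and 27.6 and 38.8 in bKO, and none was at 0. With limma, none of the markers named here was called. The 6 T cell markers summed to at most 37.2 CPM and the 5 erythroid markers to between 2.21 and 4.34. The 5 plasma cell markers summed to between 321 and 353. Most of that sum came from Irf4 (3369 to 4502 counts per library) and Xbp1 (1224 to 1610). Sdc1, Jchain and Prdm1 had at most 368, 240 and 51 counts, so the sum is not a measure of plasma cells. No gene of these 3 lists was called by edgeR, where 0 had an unadjusted p under 0.05, or by DESeq2 or limma. The part of other cell types in the family's values was not tested.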

How the data were processed

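RNA of FOB cells from 2 WT and 2 Hnrnpf bKO samples was sequenced with a poly(A) protocol, and samples were grouped by their labels. By the submitters' notes and the methods, the authors trimmed reads with cutadapt 1.9.1, aligned them to GRCm38 with HISAT2 2.0.1 and counted them with HTSeq 0.6.1. The deposited counts are whole numbers per gene, without normalization. The deposited FPKM values are the same counts divided by exonic size and library total, as the authors computed them. In the deposited splicing table, the authors' FDR and difference in inclusion level are their own comparison and were not used. The number and type of events were.

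Counts were tested with edgeR 4.0.16 in R 4.3.3 (filterByExpr, TMM, quasi-likelihood F test, Benjamini-Hochberg adjustment over 14123 genes). DESeq2 1.42.0 and limma 3.58.1 on log2 FPKM (0.1 or 1 added, mean FPKM of at least 0.5) were alternatives, beside other scalings, filters, the replicate number as a term and each library left out. Libraries held 15698567 to 18908963 counts. The biological coefficient of variation estimated between replicates was 5.90%. The standard error of the members' log2 fold changes, computed from the fold change and the F statistic, was 0.06 to 0.08. Sequences are from GENCODE M21 transcripts, and copies were sought with blastn 2.17.0. Protein sequences were not used here.

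The family, the gene lists and the rule for named genes were chosen with earlier results of these data known. The rule took the 5 members, their near-copies and overlapping genes, up to 4 called genes of each list by adjusted p (or the most abundant, up to 2 in all), and the 3 genes most like each called member. Some genes under this rule are not reported here.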

Additional observations from a re-analysis of the deposited data

How the results depend on the processing

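The calls of Hnrnpf and Hnrnph3 and the lack of a call for Hnrnph2 and Grsf1 kept their side of the threshold under all 12 alternatives. Hnrnph1 missed it with limma on log2 FPKM (0.51 with 0.1 added, 0.50 with 1 added), and the cause was not tested. Leaving out 1 library at a time, the log2 fold change ran from -2.40 to -2.24 for Hnrnpf, 0.44 to 0.60 for Hnrnph1, 0.01 to 0.05 for Hnrnph2, 0.74 to 0.82 for Hnrnph3 and -0.035 to 0.028 for Grsf1, which turned to 0.018 and 0.028 without WT replicate 2 and without Hnrnpf bKO replicate 1. In these fits the lone library is assumed to vary like the other genotype.

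The number of genes called, 985 in the reported fit, was 621 with DESeq2, 45 and 41 with limma (0.1 and 1 FPKM added), 612 with the replicate block and 679 to 861 with a library left out. With a fold of at least 2, the number was 127, and 73 with DESeq2, 22 and 19 with limma, 217 with no filter on low counts and 116 to 140 with a library left out. With no scaling beyond the library total, 537 genes were called higher and 456 lower, against 586 and 399.

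In the fit with the replicate block the log2 fold changes were -2.32 for Hnrnpf, 0.52 for Hnrnph1, 0.03 for Hnrnph2, 0.78 for Hnrnph3 and -0.004 for Grsf1, and no member's call changed, while Taf15 (adjusted p = 0.0871) lost its call. Samples share only a number: the deviations of same-numbered libraries had a correlation of -0.0903 across 9875 genes.

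The difference in the family total was -8.56% in FPKM, -10.1% to -6.98% with a library left out, 37.9% without Hnrnpf, 3.98% per coding length and 4.64% per main transcript (chosen after seeing the data). Of the 10 places in the order of levels, 8 were the same per coding length and 6 per main transcript. With 2 libraries a group, the 95% intervals of the log2 fold change were -0.09 to 0.15 for Hnrnph2 and -0.18 to 0.17 for Grsf1. These intervals do not give the smallest change that could have been called.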
